A study of Mus musculus with 16 samples.

Results

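The 10 genes described here are Hif1a, its glycolytic targets Slc2a1, Hk1, Hk2, Pfkfb3, Pfkp, Pfkl, Pgk1 and Ldha, and the mitochondrial adenylate kinase gene Ak4. They were taken as the rows of the deposited expression table whose platform annotation names one of these symbols alone. That gave 14 features, the array's units of measurement, for 10 genes, of 35557 features and 19938 named genes in all.

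RNA came from mouse bone marrow cells that had been turned into macrophages with L-cell conditioned medium, and was hybridised to Affymetrix mouse gene arrays. All groups carried the same H3.3-HA knock-in, a tagged replacement histone, so no group shows the response of unmodified cells. The pretreated groups, whose titles name earlier interferon, were sampled at 0 h (4 arrays), 3 h (2 arrays) and 6 h (2 arrays) of interferon-gamma. The naive groups were sampled at 0 h (4 arrays), 3 h (2 arrays) and 6 h (2 arrays) of the same cytokine. How much interferon the pretreatment used, and for how long, was not stated in the sources used here. The title numbering splits the 16 arrays into 2 sets of 8: set 1 holds all 6 h arrays, set 2 holds all 3 h arrays, and each holds 2 naive and 2 pretreated 0 h arrays. Every change below was therefore taken against the 0 h arrays of the same set. No group was kept without interferon for 3 h or 6 h, so the cytokine and time in culture cannot be told apart. Nothing in the labels says that arrays of a group came from separate cultures or mice, so p-values measure only how far these arrays of a group differ, and that spread may be technical.

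Hif1a encodes the oxygen-regulated subunit of hypoxia-inducible factor, a transcription factor that is degraded in oxygenated cells and that switches on glucose uptake and glycolysis when it accumulates. Activated macrophages are known for a shift toward glycolysis with lactate release. Ak4 sits in the mitochondrial matrix, moves phosphate between adenine and guanine nucleotides, and is a known target of the hypoxia factor.

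The defining macrophage genes Adgre1, Csf1r, Cd68, Itgam, Lyz2, Cd14, Fcgr1 and Mertk were all measured. Their mean lay between 12.52 and 12.87 log2 intensity units on all 16 arrays. Markers of other cells were dimmer. A group mean of 6.5 or more in every group was seen for 4 of 5 dendritic cell, 3 of 5 fibroblast, 2 of 3 erythroid and megakaryocyte, 1 of 6 T and NK cell, 1 of 4 B cell, 0 of 7 neutrophil and 0 of 4 mast cell and basophil markers. The highest list mean on any array was 8.55, for the erythroid and megakaryocyte list, which holds Pf4 and Itga2b. Past the threshold used below, 1 of the 8 macrophage markers was higher in naive cells at 3 h. At 6 h 1 was higher and 1 lower in each group, and at 0 h 1 was higher in pretreated than in naive cells. The 6 h changes of that list ran from −1.06 to 0.75 in pretreated and from −0.87 to 1.54 in naive cells. Of the markers of other cells, 2 changed from 0 h past the threshold. The dendritic cell marker Clec10a, a lectin that some macrophages also carry, rose by 1.88 ± 0.42 at 3 h and 2.19 ± 0.42 at 6 h in pretreated cells, and by 2.56 ± 0.42 at 3 h and 1.78 ± 0.42 at 6 h in naive cells (limma adjusted p from 0.0026 to 0.0318). The B cell marker Cd79b fell by 0.58 in naive cells at 6 h (adjusted p = 0.0114). The part of other cell types in the results below was not tested. Array medians lay between 7.15 and 7.23 in set 1 and between 6.89 and 7.00 in set 2. All levels are on the authors' log2 intensity scale, and levels of different features are not set against each other. In bulk RNA, a change in a cell's RNA and a change in the number of cells that carry it cannot be told apart.

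The stretches upstream of 5 members are shown because these genes span the range of responses described below, with the 6 h changes of Slc2a1, Pfkp and Ak4 among the larger ones and those of Ldha and Pgk1 the smaller ones. Each is the 250 bases before the first start site that RefSeq lists, on GRCm38.p6 and read 5′ to 3′ on the gene's strand. They are Slc2a1 at chr4:119108495-119108744 on the plus strand, Pfkp at chr13:6648772-6649021 on the minus strand and Ak4 at chr4:101419039-101419288 on the plus strand. The others are Ldha at chr7:46845554-46845803 and Pgk1 at chrX:106186850-106187099, both on the plus strand. Capitals mark ACGTG and GCGTG, the core letters of the hypoxia response element, on either strand, where CACGTG counts on both.
Slc2a1: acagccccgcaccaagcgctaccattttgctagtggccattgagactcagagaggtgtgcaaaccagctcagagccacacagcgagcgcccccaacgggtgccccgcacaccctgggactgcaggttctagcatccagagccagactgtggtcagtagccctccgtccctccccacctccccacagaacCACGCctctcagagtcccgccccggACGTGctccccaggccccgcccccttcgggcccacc
Pfkp: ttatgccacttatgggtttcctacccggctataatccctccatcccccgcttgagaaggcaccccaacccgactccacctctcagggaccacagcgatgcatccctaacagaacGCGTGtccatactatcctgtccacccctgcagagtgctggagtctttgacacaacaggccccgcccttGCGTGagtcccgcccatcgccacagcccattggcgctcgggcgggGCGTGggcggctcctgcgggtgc
Ak4: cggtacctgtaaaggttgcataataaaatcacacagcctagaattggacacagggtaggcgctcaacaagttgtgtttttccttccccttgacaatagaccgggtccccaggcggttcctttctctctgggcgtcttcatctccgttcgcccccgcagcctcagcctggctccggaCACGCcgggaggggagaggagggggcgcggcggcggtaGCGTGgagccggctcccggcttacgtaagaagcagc
Ldha: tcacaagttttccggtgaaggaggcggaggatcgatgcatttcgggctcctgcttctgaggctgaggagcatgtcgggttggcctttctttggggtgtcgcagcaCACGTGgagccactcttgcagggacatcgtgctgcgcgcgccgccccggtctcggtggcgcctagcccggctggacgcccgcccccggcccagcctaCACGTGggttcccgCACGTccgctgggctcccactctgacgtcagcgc
Pgk1: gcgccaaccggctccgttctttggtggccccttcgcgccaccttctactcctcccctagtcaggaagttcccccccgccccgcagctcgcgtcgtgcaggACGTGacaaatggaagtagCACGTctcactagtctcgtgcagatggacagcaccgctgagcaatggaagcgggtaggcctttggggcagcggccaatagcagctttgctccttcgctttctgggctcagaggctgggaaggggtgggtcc
All 10 members matched the RefSeq promoter table, with 16 windows in all. At least 1 of the 2 cores stood in a window of each of the 10 members, and in 15 of the 16 windows. Of all 32851 windows of the same length that the table gives, 38.6% held one, as did 41.5% of the 27025 genes. The first 3 of the 4 Ak4 windows overlap and hold the same 2 matches, so the member windows are not all separate. The members were named above as Hif1a and its targets, so their share is not independent evidence. The member windows had a median GC content of 63.6%, and all windows one of 52.4%. ACGTG occurred for 7 members (18.5% of all genes) and GCGTG for 7 (30.9% of all genes). The interferon-gamma activated site TTCNNNGAA, searched on both strands, matched no member window and 7.0% of all windows, and the core of the interferon-stimulated response element, GAAA repeated after 2 free bases, matched none and 3.0% of all windows. The motifs found in these letters do not tell whether a factor was bound in these cells.

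Some rows need care before their values are read. Where a gene had several features, the gene's main value was that of its brightest feature. For Hk1, Ak4 and Pgk1 that feature has neighbours, by feature number, on another chromosome than the gene, and another feature of the gene has at least 3 of its 4 nearest annotated neighbours on the gene's own chromosome. A feature with such neighbours is called the own-locus feature here. Over all genes with several features, the brightest one was not at its own locus for 432 of 994 genes (43.5%), against 219 of 18862 genes with 1 feature (1.16%). The brightest Hk1 feature (10414661) lists a single GenBank record, and that record is also listed by all 16 features that name both Hk1 and the ribosomal protein gene Rpl17. Across the 16 arrays it correlated at r = 0.81 with the mean of those 16 features, and the own-locus Hk1 feature (10369541) at r = 0.077. Hk1 is therefore described from the own-locus feature, with the other beside it, and Ak4 from both. The 2 other Pgk1 features gave identical values on every array, and the own-locus one differed from them by at most 0.044.

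At 6 h, most of these 10 genes were higher than at 0 h, in pretreated and in naive cells. In pretreated cells 7 of the 10 members passed the test as higher against 0 h, with a median change of 1.04 on the log2 scale, and 2.89% of all 19938 genes did. In naive cells 8 of the 10 members passed as higher, with a median change of 1.48, and 7.48% of all genes did. The median change over all genes was −0.03 in pretreated and −0.01 in naive cells. With the own-locus feature of each gene, 8 of 10 members were higher in pretreated cells (2.87% of all 21789 features) and 9 of 10 in naive cells (7.57% of features). A member counted as changed at a Benjamini-Hochberg adjusted p under 0.05 in a limma fit to all genes. No member was lower. With any 1 array left out, naive cells kept 6 to 7 members. Pretreated cells kept 1 without pretreated 6 h replicate 2, 2 without pretreated 0 h replicate 1, 3 without pretreated 6 h replicate 1 and 5 without pretreated 0 h replicate 2. The calls over all genes in either direction, 1126 with all arrays, were 514, 861, 486 and 725 in those 4 fits.

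**Figure D1:**
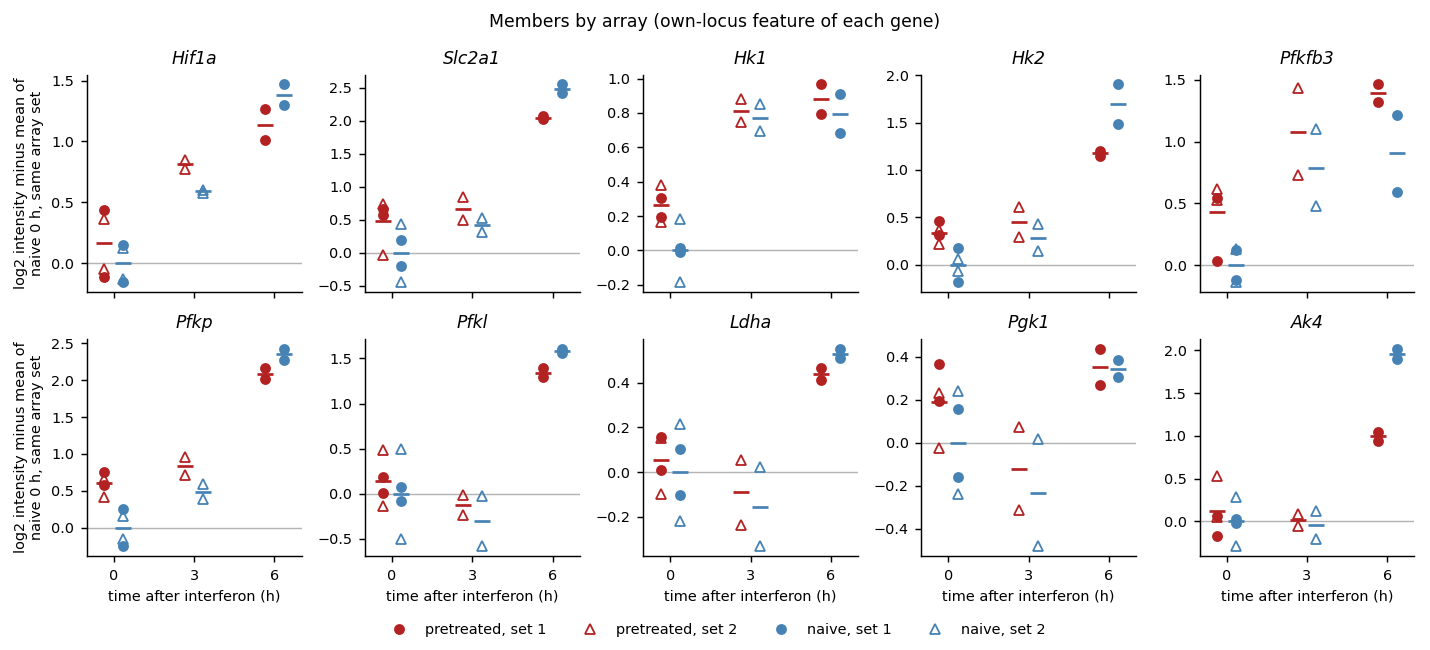
Log2 intensity of each member on every array, minus the mean of the naive 0 h arrays of the same set, against hours of interferon-gamma (0, 3 and 6); red is pretreated, blue is naive, circles are set 1, open triangles are set 2 and bars are means. At 6 h all arrays of Slc2a1, Hk2, Pfkp and Pfkl lie above every 0 h array of both groups, whereas Pgk1 at 6 h overlaps the pretreated 0 h arrays.

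Hif1a had 12.45 and 12.71 log2 units on the pretreated 6 h arrays, against 11.34 and 11.89 on the pretreated 0 h arrays of that set. It had 12.74 and 12.91 on the naive 6 h arrays, against 11.29 and 11.60 on the naive 0 h arrays. All 4 arrays at 6 h stood above all 4 at 0 h. The change was 0.97 ± 0.19 (SE; adjusted p = 0.00961) in pretreated and 1.38 ± 0.19 (adjusted p = 0.000289) in naive cells. In set 2 the transcript had 12.03 and 11.96 on the pretreated 3 h arrays against 11.14 and 11.54 at 0 h, and 11.79 and 11.76 on the naive 3 h arrays against 11.06 and 11.31 at 0 h. The 3 h arrays did not overlap the 0 h arrays in either group. With 2 arrays per group and set, a lack of overlap is only a description, here and below. The changes of 0.65 ± 0.19 (adjusted p = 0.109) in pretreated and 0.59 ± 0.19 (adjusted p = 0.117) in naive cells missed the threshold. Without pretreated 6 h replicate 2 or pretreated 0 h replicate 1 the 6 h call in pretreated cells was lost (adjusted p = 0.109 and 0.0859). An additive array-set term gave the 3 h change in pretreated cells an adjusted p of 0.047.

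Slc2a1, the glucose transporter GLUT1, had 12.57 and 12.62 on the pretreated 6 h arrays, against 11.12 and 11.21 at 0 h. It had 13.10 and 12.97 on the naive 6 h arrays, against 10.74 and 10.36 at 0 h. The order from high to low in this set was naive 6 h, pretreated 6 h, pretreated 0 h and naive 0 h, with no overlap between neighbours. The rise was 2.69-fold in pretreated (log2 change 1.43 ± 0.28, adjusted p = 0.00873) and 5.60-fold in naive cells (2.48 ± 0.28, adjusted p = 5.79e-05). At 3 h the pretreated arrays read 11.86 and 12.21 against 11.34 and 12.11 at 0 h, and the naive arrays 11.68 and 11.89 against 10.93 and 11.80 at 0 h. These overlapped, with changes of 0.31 ± 0.28 (adjusted p = 0.693) in pretreated and 0.42 ± 0.28 (adjusted p = 0.589) in naive cells. The 6 h call in pretreated cells was lost without pretreated 6 h replicate 1, pretreated 6 h replicate 2 or pretreated 0 h replicate 1 (adjusted p up to 0.0697).

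The hexokinases Hk1 and Hk2 trap glucose in the cell as its phosphate. The own-locus feature of Hk1 had 11.49 and 11.62 on the pretreated 3 h arrays against 10.90 and 11.12 at 0 h, and 11.43 and 11.59 on the naive 3 h arrays against 10.56 and 10.92 at 0 h. No 3 h array overlapped a 0 h array of either group. Hk1 rose in naive cells at 3 h by 0.77 ± 0.14 (adjusted p = 0.0059 over all features). It was the 1 member past the threshold at that time on own-locus features, beside 3.47% of all features that were higher. In pretreated cells the 3 h change was 0.54 ± 0.14 (adjusted p = 0.0717). At 6 h the values were 11.71 and 11.88 on the pretreated arrays against 11.11 and 11.22 at 0 h, and 11.60 and 11.82 on the naive arrays against 10.90 and 10.93 at 0 h. Hk1 rose again in both, by 0.63 ± 0.14 (adjusted p = 0.0215) in pretreated and 0.80 ± 0.14 (adjusted p = 0.00183) in naive cells. The naive 6 h minus 3 h difference of responses was 0.02 ± 0.20 (95% interval −0.42 to 0.46). The pretreated 6 h call was lost without any 1 of its 4 arrays (adjusted p up to 0.199), and the naive 3 h call without replicate 3 of naive 0 h or replicate 2 of naive 3 h (0.0724 and 0.0769). The brightest Hk1 feature changed by 0.24 ± 0.14 in pretreated and 0.04 ± 0.14 in naive cells at 6 h (adjusted p = 0.527 and 0.94).

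Hk2, the inducible hexokinase, had 10.37 and 10.32 on the pretreated 6 h arrays, against 9.48 and 9.63 at 0 h. On the naive arrays it had 11.07 and 10.65 at 6 h, against 9.35 and 8.99 at 0 h. Neighbouring groups were again in the order naive 6 h, pretreated 6 h, pretreated 0 h and naive 0 h without overlap. Hk2 rose 1.73-fold in pretreated (0.79 ± 0.17, adjusted p = 0.0176) and 3.23-fold in naive cells (1.69 ± 0.17, adjusted p = 2.94e-05). In set 2 it had 9.13 and 8.81 on the pretreated 3 h arrays against 8.74 and 8.89 at 0 h, and 8.95 and 8.66 on the naive 3 h arrays against 8.46 and 8.59 at 0 h. Only the naive 3 h and 0 h arrays stood apart, and neither change passed the test (0.15 ± 0.17, adjusted p = 0.767, in pretreated and 0.29 ± 0.17, adjusted p = 0.525, in naive cells). The pretreated 6 h call was lost without any 1 of its 4 arrays (adjusted p from 0.0536 to 0.129).

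The phosphofructokinase step commits sugar to glycolysis, and 3 members act there. Pfkp, the platelet-type subunit of the enzyme, had 12.19 and 12.34 on the pretreated 6 h arrays, against 10.76 and 10.93 at 0 h. It had 12.60 and 12.45 on the naive 6 h arrays, against 10.43 and 9.92 at 0 h. The 4 arrays at 6 h were more than 1 log2 unit above the 4 at 0 h. Pfkp rose 2.68-fold in pretreated (1.42 ± 0.18, adjusted p = 0.00047) and 5.10-fold in naive cells (2.35 ± 0.18, adjusted p = 2.86e-06), and both calls were kept without any 1 array. At 3 h it had 11.46 and 11.22 in pretreated cells against 10.91 and 11.15 at 0 h, and 11.09 and 10.88 in naive cells against 10.34 and 10.65 at 0 h. The groups did not overlap, and the changes were 0.31 ± 0.18 (adjusted p = 0.505) in pretreated and 0.49 ± 0.18 (adjusted p = 0.171) in naive cells.

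Pfkl, the liver-type subunit, had 11.01 and 11.11 on the pretreated 6 h arrays, against 9.73 and 9.90 at 0 h. It had 11.32 and 11.27 on the naive 6 h arrays, against 9.64 and 9.80 at 0 h. The 6 h arrays stood above all 0 h arrays, with rises of 1.25 ± 0.29 (adjusted p = 0.0215) in pretreated and 1.58 ± 0.29 (adjusted p = 0.00182) in naive cells. At 3 h it had 9.80 and 10.03 in pretreated cells against 9.91 and 10.53 at 0 h, and 9.46 and 10.02 in naive cells against 9.54 and 10.54 at 0 h. Those groups overlapped, and the change was −0.30 ± 0.29 in each (adjusted p = 0.712 in pretreated and 0.767 in naive cells). The pretreated 6 h call was lost without any 1 of its 4 arrays (adjusted p up to 0.146).

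Pfkfb3 makes the sugar bisphosphate that activates phosphofructokinase. It had 10.15 and 10.29 on the pretreated 6 h arrays against 8.86 and 9.38 at 0 h, and 9.43 and 10.05 on the naive 6 h arrays against 8.71 and 8.95 at 0 h. Unlike Slc2a1, Hk2 and Pfkp, it was highest on the pretreated 6 h arrays. Its difference between pretreated and naive cells at 6 h, 0.49 ± 0.28, missed the threshold (limma adjusted p = 0.562). The rises were 1.10 ± 0.28 (adjusted p = 0.0349) in pretreated and 0.91 ± 0.28 (adjusted p = 0.0377) in naive cells. At 3 h it had 9.62 and 8.92 in pretreated cells against 8.80 and 8.72 at 0 h, and 9.29 and 8.67 in naive cells against 8.32 and 8.05 at 0 h. No overlap was seen, and neither 0.51 ± 0.28 (adjusted p = 0.471) in pretreated nor 0.79 ± 0.28 (adjusted p = 0.151) in naive cells passed. Each 6 h call was lost without 3 of its 4 arrays, up to an adjusted p of 0.23 without pretreated 0 h replicate 1 and 0.29 without naive 6 h replicate 2.

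The 2 members that act late in the pathway, Ldha and Pgk1, had the smallest 6 h changes on own-locus features. Ldha, the lactate dehydrogenase subunit that turns pyruvate into lactate, had 13.26 and 13.32 on the pretreated 6 h arrays against 12.86 and 13.01 at 0 h, and 13.40 and 13.36 on the naive 6 h arrays against 12.96 and 12.75 at 0 h. No 6 h array overlapped a 0 h array. The change was 0.35 ± 0.17 (adjusted p = 0.378) in pretreated cells, and the rise of 0.53 ± 0.17 in naive cells was just past the threshold (adjusted p = 0.0482). That call was lost without any 1 of its 4 arrays (adjusted p up to 0.28) and after a further quantile normalization (adjusted p = 0.0764). At 3 h Ldha had 13.05 and 13.35 in pretreated cells against 13.19 and 13.44 at 0 h, and 12.96 and 13.31 in naive cells against 13.07 and 13.51 at 0 h. The groups overlapped, with changes of −0.12 ± 0.17 in pretreated and −0.15 ± 0.17 in naive cells.

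Pgk1, the kinase that makes the first ATP of the pathway, had 12.77 and 12.94 on the pretreated 6 h arrays against 12.69 and 12.86 at 0 h on the own-locus feature. It had 12.80 and 12.88 on the naive 6 h arrays against 12.34 and 12.65 at 0 h. Pretreated arrays overlapped between times and naive arrays did not. The change was 0.07 ± 0.21 in pretreated (95% interval −0.37 to 0.52) and 0.35 ± 0.21 in naive cells (−0.10 to 0.79), and neither passed the test (adjusted p = 0.977 and 0.344). At 3 h it had 12.52 and 12.91 in pretreated cells against 12.82 and 13.07 at 0 h, and 12.36 and 12.86 in naive cells against 12.60 and 13.08 at 0 h.

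Ak4 gave the largest 6 h change of the 10 members on its brightest feature. That feature had 9.88 and 10.38 on the pretreated 6 h arrays against 6.45 and 7.03 at 0 h, and 11.01 and 10.80 on the naive 6 h arrays against 6.60 and 6.78 at 0 h. The 6 h arrays were more than 2 log2 units above every 0 h array of set 1. The change was 3.39 ± 0.60 (adjusted p = 0.00472) in pretreated and 4.21 ± 0.60 (adjusted p = 0.000332) in naive cells. No fold is given for this feature, since its 0 h values lay below the medians of their arrays. The own-locus feature gave smaller changes in the same direction. It had 8.34 and 8.23 on the pretreated 6 h arrays against 7.35 and 7.12 at 0 h, and 9.31 and 9.19 on the naive 6 h arrays against 7.27 and 7.31 at 0 h. It rose by 1.05 ± 0.20 (adjusted p = 0.00766) in pretreated and 1.96 ± 0.20 (adjusted p = 2.96e-05) in naive cells, or 2.07-fold and 3.89-fold. These folds also start from a dim level. The 0 h values of this feature, from 7.12 to 7.35, lay near the array medians of set 1 (7.15 to 7.23). The naive calls of both features were kept without any 1 array. In pretreated cells the brightest feature lost its call without pretreated 6 h replicate 2 (adjusted p = 0.0535), and the own-locus feature without pretreated 0 h replicate 2 or pretreated 6 h replicate 1 (0.0686 and 0.0746).

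At 3 h neither Ak4 feature passed the test. The own-locus feature had 6.81 and 6.95 in pretreated cells against 6.91 and 7.40 at 0 h, and 6.66 and 6.99 in naive cells against 6.58 and 7.16 at 0 h. Its changes were −0.27 ± 0.20 in pretreated and −0.04 ± 0.20 in naive cells. The brightest feature had 7.69 and 7.73 in pretreated cells against 7.01 and 8.87 at 0 h, and 6.64 and 7.51 in naive cells against 6.5 and 8.42 at 0 h. In both 0 h groups 1 array of that set was well above the other. The 2 features correlated at r = 0.94 over the 16 arrays, each centred within its array set, which is a description over arrays that share treatment.

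**Figure D2:**
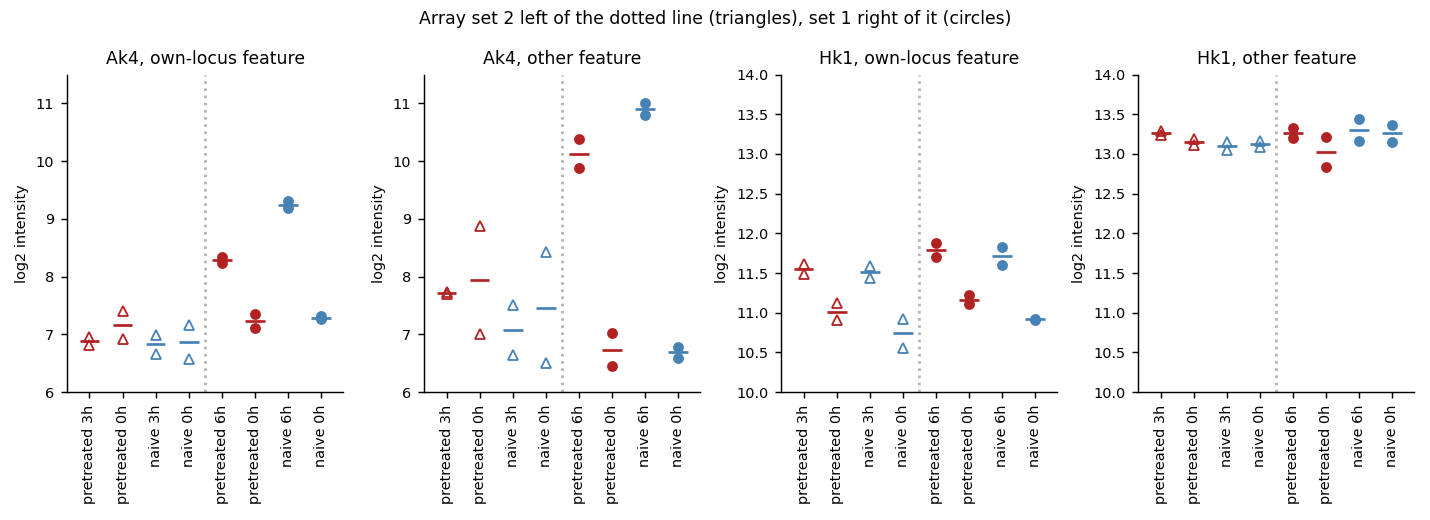
Log2 intensity of both Ak4 features and both Hk1 features on each array, by group, with set 2 left and set 1 right of the dotted line; red is pretreated, blue is naive and bars are means of 2 arrays. Both Ak4 features rise at 6 h by different amounts, and the own-locus Hk1 feature is higher at 3 h and 6 h while the other one stays between 12.84 and 13.44.

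At 3 h no member passed the test on its brightest feature in either group. In pretreated cells 1.86% of all genes were called higher, and in naive cells 3.37%. On those features an unadjusted p under 0.05 in the limma fit was seen for 1 of the 10 in pretreated cells, beside 13.4% of all genes, and for 3 of the 10 in naive cells, beside 15.3% of all genes. The own-locus Hk1 feature had an unadjusted p of 0.00254 in pretreated and 0.000147 in naive cells in limma. The members' median change was 0.13 in both groups. To set 6 h against 3 h, the 3 h response was subtracted from the 6 h response, each within its array set. Time and array set cannot be told apart in it. In naive cells 5 members had a higher 6 h response, where 0.682% of all genes did. They were Pfkp (difference 1.86 ± 0.25, adjusted p = 0.00581), Hk2 (1.41 ± 0.24, adjusted p = 0.0146), Ak4 (4.6 ± 0.84, adjusted p = 0.0196), Slc2a1 (2.07 ± 0.39, adjusted p = 0.0224) and Pfkl (1.88 ± 0.40, adjusted p = 0.0381). On its own-locus feature Ak4 differed by 2.0 ± 0.28 (adjusted p = 0.0071), and that call and that of Pfkp were kept without any 1 array. The number called fell to 1 when naive 0 h replicate 2, naive 0 h replicate 4, naive 3 h replicate 2 or naive 6 h replicate 1 was left out, to 2 when naive 3 h replicate 1 was, and to 3 when naive 0 h replicate 1 was. The calls over all genes also fell in each of those fits, so the loss was not particular to the members. A further quantile normalization took Pfkl to an adjusted p of 0.0553, and a trended, robust variance took the brightest Ak4 feature to 0.0536. In pretreated cells no member passed, and 0.0201% of all genes were called in either direction. All 10 differences were positive, and 5 of the 10 had an unadjusted p under 0.05 in limma, beside 7.31% of all genes. On the brightest features the difference of Pfkp had the smallest p (1.11 ± 0.25, adjusted p = 0.139), and an additive array-set term took that adjusted p to 0.031. The largest difference was that of Ak4 (3.62 ± 0.84, adjusted p = 0.161).

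**Figure D3:**
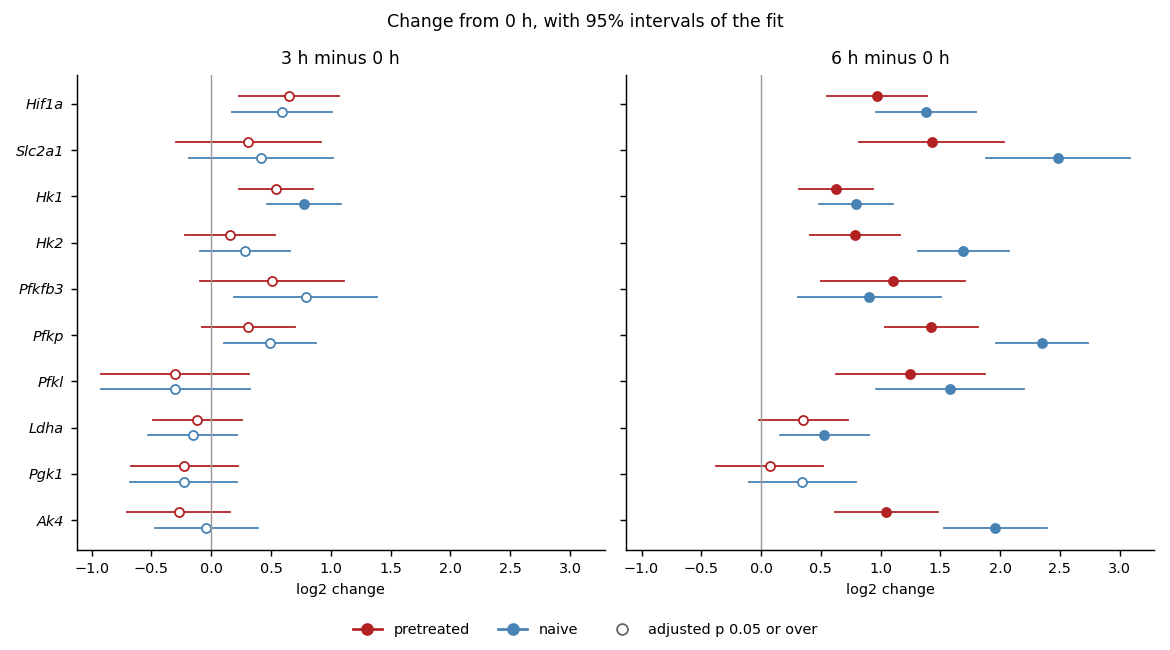
Log2 change of each member's own-locus feature from 0 h, with 95% intervals of the fit, at 3 h (left) and 6 h (right); red is pretreated, blue is naive, and open points have an adjusted p of 0.05 or over. At 3 h Hk1 in naive cells is the 1 filled point, and at 6 h the open points are Ldha in pretreated cells and Pgk1 in both.

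Before the interferon challenge, pretreated and naive cells differed in 1 of the 10 members, and 0.808% of all genes were higher. Pfkp had 10.76 and 10.93 in set 1 and 10.91 and 11.15 in set 2 on the pretreated 0 h arrays, against 10.43 and 9.92 in set 1 and 10.34 and 10.65 in set 2 on the naive 0 h arrays. Within each set the pretreated arrays were the higher ones. The mean difference of the sets was 0.60 ± 0.13 (adjusted p = 0.0446), from 0.67 in set 1 and 0.53 in set 2, and neither set fitted alone passed (adjusted p = 0.371 and 0.753). The call was lost without pretreated 0 h replicate 1, 2, 3 or 4 or naive 0 h replicate 2 or 3 (adjusted p at most 0.213). Of the other members, Slc2a1 differed by 0.49 ± 0.20 (adjusted p = 0.503), Hk2 by 0.34 ± 0.12 (adjusted p = 0.39) and Pfkfb3 by 0.43 ± 0.19 (adjusted p = 0.615). The own-locus Hk1 feature differed by 0.26 ± 0.10 (adjusted p = 0.464), and the brightest Hk1 feature by −0.11 ± 0.10 (adjusted p = 0.891). On the brightest features an unadjusted p under 0.05 in limma was seen for 4 of the 10, beside 7.87% of all genes.

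After the challenge no member differed between pretreated and naive cells past the threshold. At 3 h all 10 differences were positive, with a median of 0.20, none had an unadjusted p under 0.05 in limma (3.7% of all genes did), and 0.015% of all genes were called. At 6 h 8 of the 10 were negative on the brightest features, with a median of −0.24 against 0.02 over all genes, and 0.702% of all genes were called. The brightest Hk1 feature, at −0.04 ± 0.14, is among those negative ones, and the own-locus Hk1 feature gave 0.08 ± 0.14. On the brightest features an unadjusted p under 0.05 was seen for 1 of the 10, beside 12.3% of all genes. That member was Hk2 (−0.52 ± 0.17, adjusted p = 0.207). The own-locus Ak4 feature, which that count leaves out, had an unadjusted p of 0.000377 in limma. It was the nearest to the threshold, at −0.97 ± 0.20 (adjusted p = 0.0548, 95% interval −1.40 to −0.53), with all pretreated 6 h arrays below the naive ones. Its brightest feature gave −0.77 ± 0.60 (adjusted p = 0.772).

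The difference between the pretreated and the naive response was tested directly. At 6 h none of the 10 passed in limma, and 0.145% of all genes were called in either direction. On the brightest features an unadjusted p under 0.05 was seen for 3 of the 10, beside 9.12% of all genes. Those 3 were Slc2a1 (−1.06 ± 0.39, adjusted p = 0.392, 95% interval −1.91 to −0.20), Hk2 (−0.90 ± 0.24, adjusted p = 0.22, −1.44 to −0.37) and Pfkp (−0.93 ± 0.25, adjusted p = 0.222, −1.47 to −0.38). The own-locus Ak4 feature, which that count leaves out, gave −0.91 ± 0.28 (adjusted p = 0.283). The brightest Ak4 feature gave −0.82 ± 0.84 (adjusted p = 0.935). The smaller fold rises of these genes in pretreated cells are thus not shown to differ from those in naive cells at this number of arrays. The pretreated and naive 0 h arrays enter these differences, and in set 1 Slc2a1, Hk2 and Pfkp each had the higher mean at 0 h and the lower mean at 6 h in pretreated cells. At 3 h none passed in limma, none had an unadjusted p under 0.05 (1.66% of all genes did), the median difference was 0.00, and 0.0802% of all genes were called.

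Neighbouring genes of the pathway were read from lists chosen for this comparison, with up to 3 genes named for each. Of all 19938 genes, 576 were called higher and 550 lower in pretreated cells at 6 h. In naive cells 1492 were called higher and 2161 lower at that time. The list counts below stand beside these and were not tested against them. Among the other glycolytic enzymes, 1 of 10 measured was higher in pretreated and 3 were higher and 1 lower in naive cells at 6 h. The higher one in both was the hexokinase Hk3, with 12.67 and 12.68 on the pretreated 6 h arrays against 11.47 and 11.46 at 0 h, and 12.57 and 12.50 on the naive 6 h arrays against 10.91 and 10.84 at 0 h. It rose by 1.2 ± 0.11 (adjusted p = 6.13e-05) in pretreated and 1.65 ± 0.11 (adjusted p = 9.29e-07) in naive cells. Hk3 was also higher at 3 h in pretreated cells (0.49 ± 0.11, adjusted p = 0.0301) and in naive cells (0.87 ± 0.11, adjusted p = 0.000274), and in pretreated against naive cells at 0 h (0.60 ± 0.08, adjusted p = 0.00139). The triose isomerase Tpi1 rose by 0.64 ± 0.15 and the aldolase Aldoc fell by 0.67 on the log2 scale in naive cells (adjusted p = 0.01 and 0.0248). The Tpi1 call was lost without replicate 2 of naive 0 h or replicate 1 of naive 6 h (up to 0.0646), that of Aldoc without replicate 1 of naive 0 h or replicate 2 of naive 6 h (up to 0.253), and that of Hk3 in pretreated cells at 3 h without pretreated 0 h replicate 3, pretreated 3 h replicate 1 or pretreated 3 h replicate 2 (up to 0.154). The median of the list was 0.11 in pretreated and 0.08 in naive cells.

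Of 7 other hexose and lactate transporters, 1 was higher and 2 lower in pretreated cells, and 2 higher and 3 lower in naive cells. The lactate exporter Slc16a3 had 11.65 and 11.80 on the pretreated 6 h arrays against 10.29 and 10.46 at 0 h, and 11.96 and 11.95 on the naive 6 h arrays against 9.81 and 10.05 at 0 h. It rose by 1.35 ± 0.34 (adjusted p = 0.0383) in pretreated and 2.02 ± 0.34 (adjusted p = 0.00124) in naive cells, and the pretreated call was lost without any 1 array (up to 0.217). The glucose transporter Slc2a3 went the other way from Slc2a1. It had 7.81 and 7.89 on the pretreated 6 h arrays against 8.86 and 8.82 at 0 h, and 7.31 and 7.25 on the naive 6 h arrays against 9.09 and 8.75 at 0 h. Slc2a3 fell by 0.99 in pretreated (adjusted p = 0.000846) and 1.64 in naive cells (adjusted p = 5.52e-06) on the log2 scale at 6 h. At 3 h it fell by 0.98 in pretreated (adjusted p = 0.00149) and 0.95 in naive cells (adjusted p = 0.000755), and these 4 calls were kept without any 1 array. The hexose transporter Slc2a6 rose by 1.72 ± 0.26 in naive cells (adjusted p = 0.000495).

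Of 10 genes for other bifunctional phosphofructokinases, pyruvate dehydrogenase kinases and pyruvate entry, 1 was higher in pretreated cells, and 3 were higher and 2 lower in naive cells at 6 h. The pyruvate dehydrogenase kinases, which hold pyruvate back from the mitochondrial oxidation, moved apart. Pdk3 rose by 1.48 ± 0.21 in pretreated (adjusted p = 0.00114) and 1.45 ± 0.21 in naive cells (adjusted p = 0.000388). In naive cells Pdk1 rose by 1.03 ± 0.28 (adjusted p = 0.0221) and Pdk2 fell by 1.80 on the log2 scale (adjusted p = 0.000926). The Pdk1 call was lost without naive 0 h replicate 1, naive 0 h replicate 2 or replicate 2 of naive 6 h (up to 0.151). The median of the list was 0.11 in pretreated and 0.15 in naive cells.

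Of 9 genes for other HIF subunits and oxygen sensing, 1 passed at 6 h in each group. It was Egln1, the prolyl hydroxylase that marks Hif1a protein for degradation and that is itself a target of the factor. Egln1 rose by 0.92 ± 0.17 in pretreated (adjusted p = 0.00599) and 1.24 ± 0.17 in naive cells (adjusted p = 0.000247). The pretreated call was lost without pretreated 6 h replicate 2 or pretreated 0 h replicate 1 (up to 0.0836). The median of the list was 0.03 in pretreated and −0.09 in naive cells.

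Of 19 other hypoxia targets, 2 were higher and 1 lower in pretreated cells, and 6 were higher and 3 lower in naive cells at 6 h, with medians of 0.13 and 0.41. The mitochondrial gene Higd1a rose by 1.15 ± 0.21 in pretreated and 1.90 ± 0.21 in naive cells, and the mitophagy gene Bnip3 by 1.30 ± 0.24 in pretreated and 1.51 ± 0.24 in naive cells. The brightest features of both lie away from the gene's locus by their neighbours. The own-locus feature of Bnip3 changed by 1.35 ± 0.21 in pretreated and 1.56 ± 0.21 in naive cells, with both past the threshold. That of Higd1a rose by 1.43 ± 0.18 in naive cells, and its change of 0.65 ± 0.18 in pretreated cells missed the threshold (adjusted p = 0.064). Plin2, which coats lipid droplets, fell by 0.72 in pretreated (adjusted p = 0.0153) and 1.14 in naive cells (adjusted p = 0.000237) on the log2 scale. The pretreated calls of Higd1a, Bnip3 and Plin2 were lost without pretreated 6 h replicate 2 or pretreated 0 h replicate 1.

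Of 7 other adenylate and related nucleotide kinases, none passed in pretreated cells at 6 h in limma, and 2 were higher and 1 lower in naive cells. The mitochondrial kinase Cmpk2 rose by 1.37 ± 0.18 (adjusted p = 0.000187), the cytosolic Cmpk1 by 0.74 ± 0.12 (adjusted p = 0.000969), and the cytosolic adenylate kinase Ak1 fell by 1.15 on the log2 scale (adjusted p = 0.0154), a call lost without any 1 array (up to 0.0851). Cmpk2 was also higher at 3 h, in pretreated (0.91 ± 0.18, adjusted p = 0.0158) and in naive cells (1.97 ± 0.18, adjusted p = 2.35e-05), where the pretreated call was lost without pretreated 0 h replicate 4, pretreated 3 h replicate 1 or pretreated 3 h replicate 2 (up to 0.19). Before the challenge, Cmpk2 was also past the threshold as higher in pretreated than in naive cells at 0 h. The largest such difference in the list was 1.22. Of 7 pentose phosphate genes, none passed in pretreated cells. In naive cells Rpe was higher (0.65 ± 0.15, adjusted p = 0.00775) and Tkt lower (fell by 0.40, adjusted p = 0.0219). Both calls were lost without replicate 2 of naive 0 h or replicate 1 of naive 6 h, and that of Tkt also without naive 6 h replicate 2 (up to 0.219). In pretreated cells the list medians were 0.12 for the nucleotide kinases and 0.01 for the pentose phosphate genes.

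**Figure D4:**
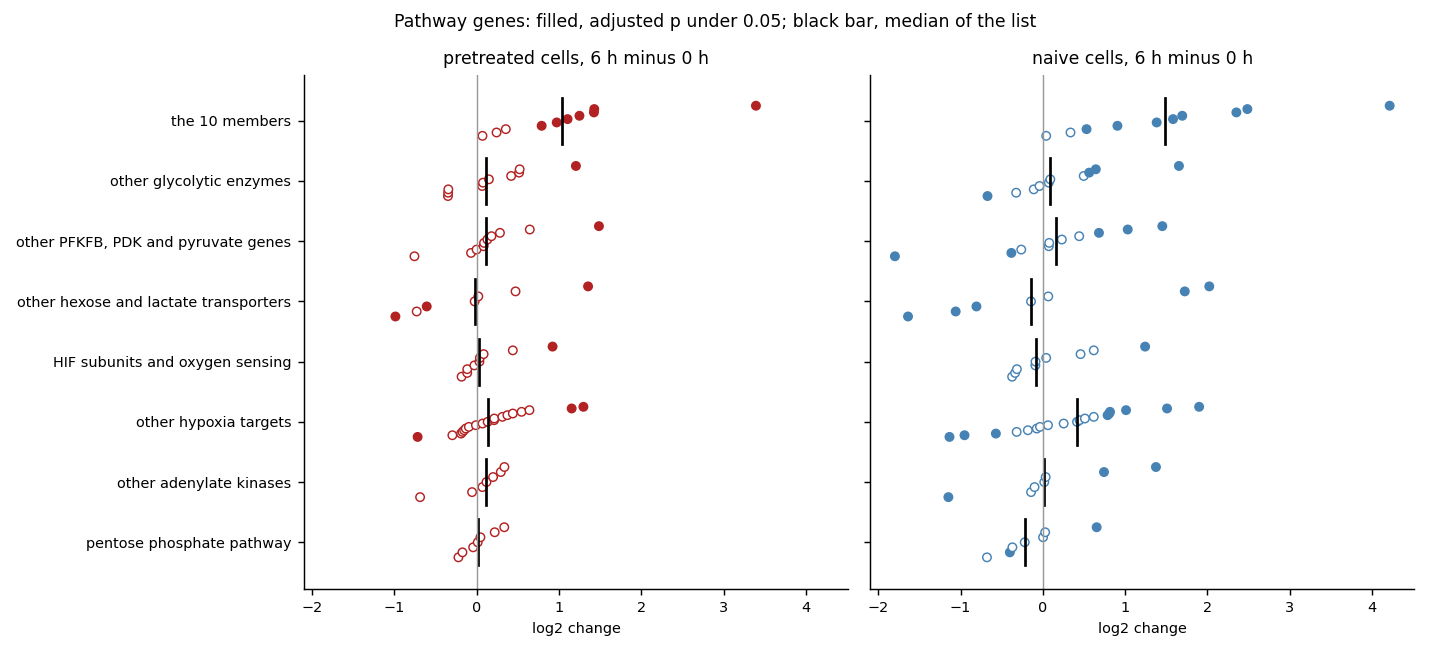
Log2 change at 6 h against 0 h for every measured gene of each list, in pretreated cells (left, red) and naive cells (right, blue); filled points have an adjusted p under 0.05 and black bars are list medians. The median of the 10 members is 1.04 in pretreated and 1.48 in naive cells, and the 7 other lists have medians between −0.22 and 0.41.

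The genes whose values ran most like those of 4 members over the 16 arrays, each centred within its array set, are given as a description, since all arrays share the same treatments. For Hif1a these were Pphln1 (r = 0.975), Pdk3 (0.967) and Lap3 (0.966). For the own-locus Ak4 feature they were Jmjd6 (0.962), the chaperone gene Dnaja1 (0.958) and Hyou1 (0.947), and for its brightest feature Pfkl (0.983), with Hyou1, Mycbp and Slc16a3 at 0.974. Hyou1, a chaperone of the endoplasmic reticulum, was in the first 5 of both Ak4 features. For Pfkfb3 the first was Ciita, the regulator of MHC class II genes (0.932), and for Pgk1 the first were Aars2 (0.927), Ssr2 (0.923) and the chaperone gene Calr (0.904) on its own-locus feature. None of the members was among the first 5 for Hif1a, Pfkfb3 or Pgk1.

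Arrays within a group of set 2 differed by their place in the title numbering. In all 4 groups of that set the arrays numbered 5 to 8 were higher than those numbered 1 to 4 for 6 of the 10 members on own-locus features, where 11.6% of all features were. The members were Slc2a1, Hk1, Pfkl, Ldha, Pgk1 and Ak4. On the brightest features it was 5 of the 10, without Hk1, beside 11% of all genes. Pfkl differed by 0.22 in pretreated 3 h, 0.63 in pretreated 0 h, 0.56 in naive 3 h and 0.99 in naive 0 h cells. In set 1 this held for 4 members on own-locus features and 7.96% of features. What the place in the numbering stands for was not stated in the sources used here.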

How the data were processed

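Total RNA of 16 samples was labelled with biotin and hybridised to 1-colour Affymetrix mouse gene arrays, per the labels. The authors deposited log2 intensities, and how these were background-corrected, normalized and summarised was not stated in the sources used here. Column medians differ between the 2 array sets, which were read from the title numbering, so every contrast was taken within a set and levels were not compared across sets. The number of arrays, 2 per group and set, limits the precision. No depth applies to arrays.

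Of 35557 features, 21789 carry 1 symbol in the platform annotation, which can be old, 1621 carry several and were not named, and 12147 carry none here. Of the 21789, 21698 matched the RefSeq gene table by gene identifier. Of several features of a gene the brightest was used, which gave 19938 genes. A limma fit (version 3.58.1, R 4.3.3) gave each group in each set its own mean, leaving 8 residual degrees of freedom and adding 4.26 prior ones. Its p-values were adjusted (Benjamini-Hochberg) over all genes of each of 11 comparisons, with a threshold of 0.05. A fold is 2 to the power of a log2 change, an error is a standard error, and intervals are 95% intervals of the fit. Own-locus features came from the same fit over the 21789 features, an alternative chosen after seeing the data. The fit was tested on simulated data.

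The members and lists were chosen with earlier results of these data known. All 10 members are named, and of each list up to 3 genes with the largest change past the threshold in a comparison. For likeness, the 5 genes with the highest Pearson correlation were taken for Ak4, Hif1a, Pfkfb3 and Pgk1. Alternatives were an additive array-set term, the place in a set (title positions 1 to 4 or 5 to 8) as a block, each set alone, no genes under a mean of 6.5, the mean of a gene's features, a further quantile normalization, eBayes with trend and robust, a log2 change of at least 1, and each array left out. Where that leaves 1 array in a group and set, its spread is taken from the other groups. In each set, the differences between these places correlated between groups at 0.082 to 0.662, and the labels number no replicates, so the places were not used as pairs. Promoter sequences are from RefSeq on GRCm38.p6. Figures used matplotlib 3.10.9 and numpy 2.4.6, with pandas 2.3.3 in Python 3.11.15.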

Additional observations from a re-analysis of the deposited data

Results flagged for a closer look

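Within the 4 naive 0 h arrays, which span both array sets, 1 array stood away from the others for 2 features: the gap to its nearest neighbour was 0.939 of the range for the own-locus Hk1 feature and 0.858 for the brightest Ak4 feature, above Dixon's critical value for 4 values. Chance passes this limit in about 1 of 20 groups, and the sets differ in their medians. For Hk1 the array was naive 0 h replicate 3 (10.56), and for Ak4 it was naive 0 h replicate 4 (8.42).

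In naive cells the 6 h response exceeded the 3 h response by 4.6 on the log2 scale for the brightest Ak4 feature. The excess was 2.07 for Slc2a1, 1.88 for Pfkl, 1.86 for Pfkp and 1.41 for Hk2. All these differences were past the threshold of their test. The brightest Ak4 feature has neighbours, by feature number, on another chromosome than the gene, and the own-locus feature gave a smaller difference. The times lie in different array sets and cannot be told apart from them.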

How the results depend on the processing

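No change of a member in the 11 comparisons that was past the threshold turned its direction under any alternative. With 1 array left out, the number of members called ranged from 6 to 7 in naive cells at 6 h, 1 to 5 in pretreated cells at 6 h, 1 to 5 for the naive 6 h minus 3 h difference and 0 to 1 for pretreated against naive cells at 0 h, and it was 0 in the other comparisons. Over all members and comparisons, leaving out 1 array ended 52 calls and kept the side of the threshold in 588 cases. The cases that kept their side include all changes that were not past the threshold with all arrays, which had no call to lose. They therefore do not measure how stable the calls were. For pretreated against naive cells at 0 h, requiring a log2 change of at least 1 left 0 members, as did array set 1 alone and array set 2 alone. An additive array-set term called 1 member at 3 h in pretreated cells and 1 for the 6 h minus 3 h difference in pretreated cells. The own-locus feature called 1 member in naive cells at 3 h. No pairing by replicate number exists in the labels. With the place in an array set (title positions 1 to 4 or 5 to 8) as a replicate block, 2 members were called in naive cells at 3 h, 1 in pretreated cells at 3 h, 2 in pretreated against naive cells at 0 h, 8 for the naive 6 h minus 3 h difference and 2 for the pretreated one. In naive cells at 6 h it called 9 members, and over all genes 4832 against 3653 in the main fit. The calls added against 0 h were Hif1a at 3 h in pretreated (adjusted p = 0.0146) and naive cells (0.0163), Pfkfb3 at 3 h in naive cells (0.00841) and Pgk1 at 6 h in naive cells (0.0339). Over all genes the block called 1272 against 569 in pretreated cells at 3 h, 1895 against 1126 at 6 h, 1925 against 1088 in naive cells at 3 h, 684 against 192 between pretreated and naive cells at 0 h, 76 against 3 at 3 h and 845 against 140 at 6 h, 302 against 29 for the difference of responses at 6 h and 31 against 16 at 3 h, and 1252 against 345 for the naive and 147 against 4 for the pretreated 6 h minus 3 h difference. The additive term called 923 at 3 h in pretreated cells, 273 between pretreated and naive cells at 6 h, 245 for the difference of responses at 6 h, 10 for that at 3 h, and 1088 for the naive and 102 for the pretreated 6 h minus 3 h difference. The array set of the comparison alone called 29 between pretreated and naive cells at 6 h, 14 for the difference of responses at 6 h and 8 for that at 3 h, and 52 (set 1) and 74 (set 2) between pretreated and naive cells at 0 h. The cause of these shifts was not tested. The number of arrays, 2 per group and set, limits every value.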
